A study of Homo sapiens with 18 samples.

Results

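The ID and HES/HEY repressors are small nuclear proteins that hold back other transcription factors. They were named by gene symbol as *ID1*, *ID2*, *ID3*, *ID4*, *HES1*, *HES4*, *HES6* and *HEY1*. Of these 8 genes, 7 had transcripts in the count table and passed the filter on low counts, out of 15530 genes tested, and *ID3* was not analysed here. The libraries came from HEK293 cells, a human embryonic kidney line, either unedited (wildtype), lacking β-arrestin1 and β-arrestin2 (β-arrestin1/2 KO) or lacking the stimulatory G protein subunit Gαs (Gαs KO). All 3 lines carried a transiently transfected β2-adrenergic receptor (β2AR), were serum starved overnight, and 48 h after transfection received vehicle (basal) or 1 μM isoproterenol (ISO), a β-adrenergic agonist, for 1 h. Each of the 6 groups of line and treatment had 3 libraries labelled as biological replicates. The KO lines were made by CRISPR-Cas9, no rescued line was in the RNA-Seq data, and the receptor was overexpressed in every group, so a difference between lines cannot be told apart from other differences between these derivatives.

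ID proteins have a helix-loop-helix without the basic region that touches DNA. They pair with E proteins such as TCF3 and keep them off E-boxes, and they are textbook early targets of bone morphogenetic protein (BMP) and SMAD signalling. HES and HEY proteins are basic helix-loop-helix (bHLH) repressors with an Orange domain, and several are direct targets of Notch through RBPJ. HES proteins recruit TLE corepressors. HES6 differs in that it counteracts HES1. In β2AR signalling, Gαs raises cAMP and thereby activates protein kinase A, whereas β-arrestins bind the phosphorylated receptor and limit its coupling to G proteins.

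The comparisons asked how these repressors responded to ISO when either Gαs or the β-arrestins were missing, and how they differed at basal. Library totals ran from 17908597 to 25019834 estimated counts. *GNAS*, which encodes Gαs, lay between 61.3 and 71.3 counts-per-million (CPM) in the 6 Gαs KO libraries and at 1070 CPM or more in the other 12, *ARRB2* lay between 15.2 and 23.0 CPM in β-arrestin1/2 KO libraries and at 71.6 CPM or more elsewhere, and *ARRB1* lay between 37.9 and 43.5 CPM in β-arrestin1/2 KO and between 38.4 and 65.3 CPM in wildtype libraries, which overlapped. Of 6 markers set for HEK293 cells, all passed the filter, and *VIM* and *NEFL* were high, whereas *CD3E* and *HBB* were listed at 0 in every library and the 5 blood markers summed to at most 10.7 TPM. Wildtype basal replicate 1 stood apart: the mean GC content of its counted transcripts was 52.5%, against 49.2 to 50.1% in the other 17 libraries, and its mitochondrial share was the lowest at 1.55%. Results of the 7 genes that use wildtype basal cells were therefore also computed without it. The main test estimated the spread over all 18 libraries, including this one. Responses within the KO lines were refitted without it only where their own groups were fitted alone. In β-arrestin1/2 KO cells the GC content was 49.8 to 50.1% at basal and 49.3 to 49.4% with ISO, and the mitochondrial share was 1.7 to 2.66% and 2.97 to 3.32%. Alternative fits corrected for GC content and transcript length, whereas the part of the mitochondrial shift in the results was not tested.

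The promoters of *ID1*, *ID4* and *HES1* are shown because at most 6 bases of each window lie in annotated exons. They belong to a BMP target, the most abundant of the ID genes analysed and a Notch target. RefSeq (GRCh38.p14) gave windows for 6 of the 7 genes, with none for *HEY1*. Each printed sequence covers the 250 bases before the RefSeq transcription start, 5′ to 3′ on the gene's strand. Capitals mark matches on either strand to 6 motifs, namely the cAMP response element TGACGTCA, its shorter core TGACG, the SMAD motif GGCGCC, the RBPJ motif TGGGAA, the E-box CANNTG and the N-box CACNAG (a site bound by HES proteins). The core lies within the full element, so any full match is also a core match. The windows are ID1 chr20:31605039-31605288, ID4 chr6:19837120-19837369 and HES1 chr3:194135898-194136147, all on the plus strand.
ID1: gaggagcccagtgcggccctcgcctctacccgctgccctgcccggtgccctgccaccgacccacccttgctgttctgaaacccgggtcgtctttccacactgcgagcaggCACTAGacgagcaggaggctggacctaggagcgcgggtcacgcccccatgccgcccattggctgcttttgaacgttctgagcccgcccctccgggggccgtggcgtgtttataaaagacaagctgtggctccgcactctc
ID4: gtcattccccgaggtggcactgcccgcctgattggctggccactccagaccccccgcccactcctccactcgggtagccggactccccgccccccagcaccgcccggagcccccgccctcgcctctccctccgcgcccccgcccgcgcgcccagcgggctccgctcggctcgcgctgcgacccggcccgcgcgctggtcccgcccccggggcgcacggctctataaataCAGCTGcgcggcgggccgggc
HES1: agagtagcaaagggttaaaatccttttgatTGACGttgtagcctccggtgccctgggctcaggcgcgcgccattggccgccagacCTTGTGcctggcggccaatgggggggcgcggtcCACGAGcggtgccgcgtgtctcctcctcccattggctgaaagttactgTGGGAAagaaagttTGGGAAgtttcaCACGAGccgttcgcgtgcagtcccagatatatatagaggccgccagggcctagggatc

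The *HES1* window held the most matches. A core of the cAMP response element began at −220 from the start, 2 RBPJ motifs at −84 and −70, and 3 N-boxes at −165, −132 and −58. The *ID1* window held 1 N-box at −140, and the *ID4* window 1 E-box at −21. The other windows were searched but not printed, because 75 to 202 of their bases lie in annotated exons. Of these, *ID2* held an E-box at −205, *HES6* an E-box at −158 and *HES4* an RBPJ motif at −76. A full cAMP response element was in none of the 6 windows and in 1.63% of 34943 RefSeq windows of the same length. The core was in 21.2% of them, the RBPJ motif in 20.9%, the SMAD motif in 16.4%, the N-box in 32.1% and the E-box in 61.8%. A match describes letters only and shows neither binding nor its absence.

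In GENCODE 29 (GRCh38) coordinates, *ID1* (ENSG00000125968) lies at chr20:31605283-31606515, *ID2* (ENSG00000115738) at chr2:8678845-8684453 and *ID4* (ENSG00000172201) at chr6:19837386-19840684, all on the plus strand. *HES1* (ENSG00000114315) lies at chr3:194136145-194138732 on the plus strand, *HES4* (ENSG00000188290) at chr1:998962-1000172 and *HES6* (ENSG00000144485) at chr2:238238267-238240662 on the minus strand, and *HEY1* (ENSG00000164683) on the minus strand of chromosome 8. Antisense or opposite-strand genes overlap *ID2*, *ID4* and *HES6* in this annotation and have no counts of their own here, so reads from them cannot be told apart. *HES1* was counted almost wholly on HES1-201 (98.2% of its counts), *ID4* on its single transcript, *ID1* mostly on ID1-202 (88.6%) and *ID2* mostly on ID2-203 (86.6%). In wildtype basal replicate 1, 57.5% of the *ID2* counts were assigned to the short ID2-202, the highest share of any library. *HES4* divided its counts among 4 transcripts, 31.7% of them on a retained-intron form, and *HES6* mainly between HES6-201 (59.8%) and HES6-203 (35.2%). *HEY1* was mainly HEY1-202 (71.2%). The gene sums below add these transcripts. Counts per library were lowest for *ID1* (155 to 1220) and *HES6* (191 to 596) and highest for *ID4* (2045 to 5325).

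Compared per length, in transcripts-per-million (TPM), *HES4* was the most abundant of the 7 in wildtype basal cells, at a level of 241 ± 31.4 TPM (mean ± SD, n = 3). *ID4* followed at 158 ± 55.1 TPM, with 96.4 TPM in replicate 1 and 203 and 175 TPM in replicates 2 and 3. *ID2* (79.4 ± 5.94 TPM), *HEY1* (78.4 ± 17.4 TPM) and *HES1* (74.6 ± 20.3 TPM) came next and did not differ beyond their spread. *ID1* (33.1 ± 4.15 TPM) and *HES6* (29.7 ± 6.46 TPM) were the least abundant, again within each other's spread. In Gαs KO basal cells *HES4* stayed highest (247 ± 7.53 TPM) while *ID1* (16.7 ± 1.96 TPM) and *HES6* (15.8 ± 1.16 TPM) were at the bottom. In β-arrestin1/2 KO cells given ISO, *ID1* reached 115 ± 9.51 TPM and *HES1* 159 ± 2.62 TPM.

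**Figure D1:**
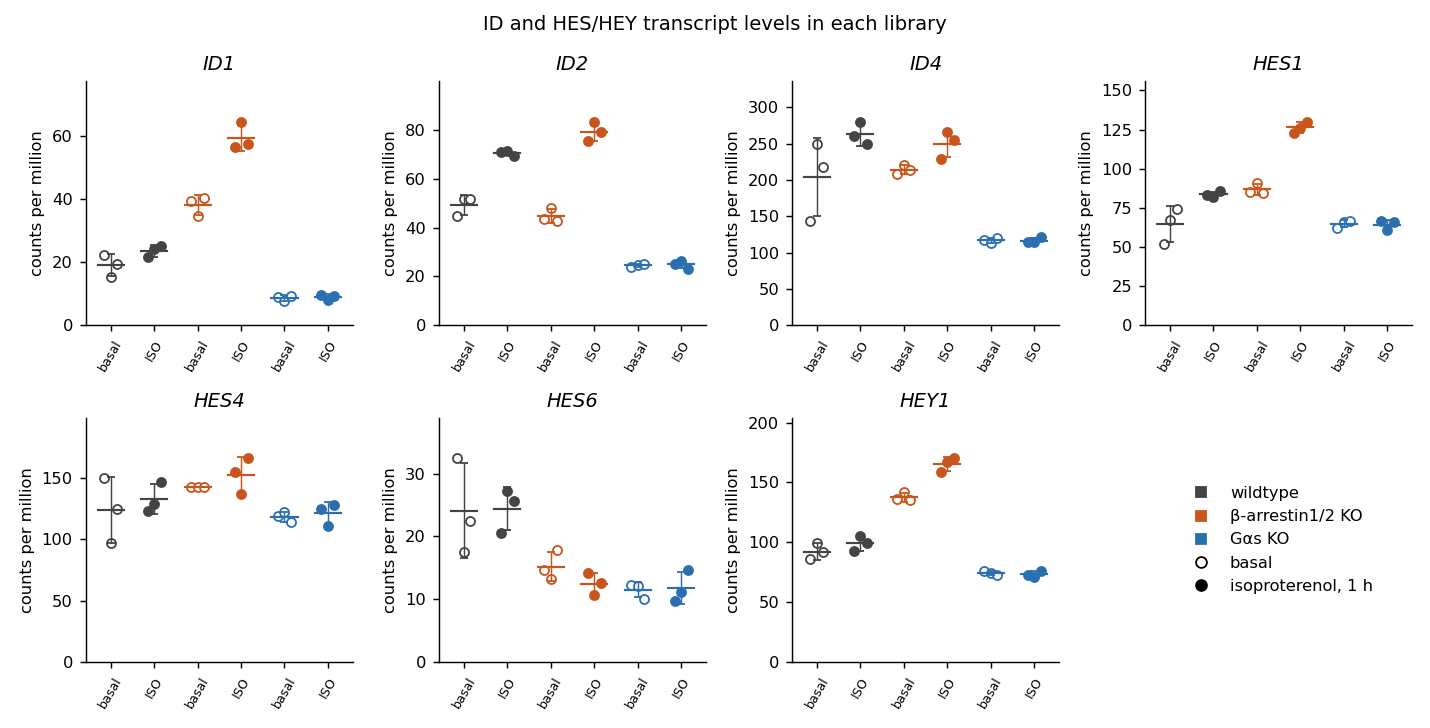
Level of each gene in every library, in TMM-normalized CPM (y axis, from 0), by cell line (colour) and treatment (open circles basal, filled circles ISO for 1 h); horizontal lines are group means and bars SD (n = 3). *ID1*, *ID2* and *HES1* rise with ISO in β-arrestin1/2 KO cells, where *ID2* goes from 42.7 to 47.9 CPM at basal to 75.4 to 83.3 CPM, while each gene's Gαs KO groups overlap.

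The responses to ISO differed by line in which genes were called, that is, had a Benjamini-Hochberg adjusted p under 0.05 in edgeR's quasi-likelihood test. In wildtype cells 1 of the 7 genes was called, *ID2*, against 0.464% of all genes tested. Without the β-arrestins 3 were called, *ID1*, *ID2* and *HES1*, all higher, against 1.13%. Without Gαs 0 were called, against 0% of all genes. The same edgeR test gave 0 members at an unadjusted p under 0.05 there, and DESeq2's Wald test called 0 members and 8 genes in all. The median log2 fold change of the 7 genes was 0.31 for the wildtype response (−0.002 over all genes), 0.26 without the β-arrestins (−0.008 over all genes) and 0.02 without Gαs (−0.001 over all genes). These are bulk measurements, in which fewer responding cells and a smaller response per cell cannot be told apart.

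*ID2* had the firmest response. In wildtype cells it was measured at 44.6, 51.7 and 51.8 CPM at basal and at 70.9, 71.3 and 69.4 CPM with ISO. All ISO libraries lay above all basal libraries, and replicate 1 was the lowest of the basal libraries. The log2 fold change was 0.52 ± 0.08 (SE), a 1.43-fold rise (adjusted p = 0.0035, edgeR's quasi-likelihood test). Without wildtype basal replicate 1 it was 0.45 (edgeR adjusted p = 0.00078), and when only the wildtype libraries were fitted the call was lost at the same fold (edgeR adjusted p = 0.95).

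β-arrestin1/2 KO cells had *ID2* at 43.6, 47.9 and 42.7 CPM at basal and at 75.4, 83.3 and 79.2 CPM with ISO. The groups were well apart, and the log2 fold change was 0.83 ± 0.08 (SE), or 1.77-fold (adjusted p = 1.1e-05, edgeR's quasi-likelihood test). Gαs KO cells had *ID2* at 23.9, 24.8 and 25.1 CPM at basal and at 25.3, 26.3 and 23.2 CPM with ISO, so that the ISO libraries lay on both sides of the basal ones. Its log2 fold change there was 0.02, with a 95% interval from −0.14 to 0.18 (edgeR adjusted p = 1.00).

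*ID1* gave 22.4, 15.3 and 19.5 CPM in wildtype basal libraries and 21.6, 24.1 and 25.2 CPM with ISO. The groups overlapped through basal replicate 1, the highest of the basal libraries. Its log2 fold change of 0.31 ± 0.13 (SE) was not called (edgeR adjusted p = 0.45), nor was that of 0.44 without replicate 1 (edgeR adjusted p = 0.10) or of 0.17 without basal replicate 2 (edgeR adjusted p = 0.32). With GC content and transcript length corrected for it was called, at 0.48 (edgeR adjusted p = 0.034). *ID1* rose in β-arrestin1/2 KO cells from 39.4, 34.6 and 40.3 CPM to 56.5, 64.5 and 57.5 CPM, with no overlap and a log2 fold change of 0.64 ± 0.13 (SE), or 1.56-fold (edgeR adjusted p = 0.014). That call was lost in 4 of the 6 fits that left out a β-arrestin1/2 KO library, namely basal replicates 1 and 2 and ISO replicates 2 and 3, with edgeR adjusted p from 0.051 to 0.11. *ID1* was low in Gαs KO cells and its groups overlapped, at 9.0, 7.6 and 9.4 CPM at basal and 9.7, 8.0 and 9.2 CPM with ISO.

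*ID4*, the most abundant of the ID genes analysed, was called in none of the 3 responses. Its wildtype basal libraries were at 144, 249 and 218 CPM and its wildtype ISO libraries at 260, 280 and 249 CPM. Basal replicate 1 was far below the other basal libraries, and the groups overlapped. Its log2 fold change was 0.37 (edgeR adjusted p = 0.38), and 0.17 without that library (edgeR adjusted p = 0.26). Its β-arrestin1/2 KO libraries were at 208, 220 and 214 CPM at basal and at 229, 266 and 255 CPM with ISO, which did not overlap, and the log2 fold change of 0.22 was not called (edgeR adjusted p = 0.71).

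*HES1* was called in β-arrestin1/2 KO cells, where it went from 85.1, 91.1 and 84.3 CPM to 123, 126 and 130 CPM. Each ISO library was above each basal one. The rise was 0.54 ± 0.10 (SE) on the log2 scale, or 1.46-fold (adjusted p = 0.0071, edgeR's quasi-likelihood test). It fell just short without basal replicate 1 (edgeR adjusted p = 0.053) or without basal replicate 3 (edgeR adjusted p = 0.058).

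In wildtype cells *HES1* was at 52.0, 67.0 and 74.6 CPM at basal and at 83.4, 82.2 and 85.5 CPM with ISO. The groups did not overlap, although basal replicate 1 was the lowest. The log2 fold change of 0.38 ± 0.10 (SE) was not called by edgeR (adjusted p = 0.17) and was called by DESeq2's Wald test (adjusted p = 0.026). Without basal replicate 1 it was 0.24 (edgeR adjusted p = 0.052). Among the Gαs KO libraries *HES1* was at 62.4, 65.8 and 66.6 CPM at basal and at 66.5, 60.7 and 65.8 CPM with ISO, with overlap and a log2 fold change of −0.01 (95% interval −0.21 to 0.18).

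*HEY1*, which acts downstream of Notch in vessels and heart, gave 136, 142 and 135 CPM in β-arrestin1/2 KO basal libraries and 159, 167 and 170 CPM with ISO. These did not overlap. The log2 fold change of 0.26 ± 0.07 (SE) missed the threshold in edgeR (adjusted p = 0.12) and passed it in DESeq2's Wald test (adjusted p = 0.0047). In wildtype cells *HEY1* was at 85.7, 99.4 and 91.5 CPM at basal and at 92.8, 105 and 99.4 CPM with ISO, which overlapped, with a log2 fold change of 0.11 (edgeR adjusted p = 0.56), and of 0.06 without basal replicate 1.

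*HES4* and *HES6*, the genes with the highest GC content in their transcripts (74.1 and 67.6%), were not called in any response. *HES4* ranged over 96.8 to 150 CPM in wildtype basal libraries and 123 to 147 CPM with ISO. *HES6* ranged over 17.5 to 32.4 CPM and 20.5 to 27.2 CPM. For both genes the wildtype basal library that was highest was replicate 1, the library with the high GC content, and the ISO range sat inside the basal range. *HES4* had, in β-arrestin1/2 KO cells, a log2 fold change of 0.09 (edgeR adjusted p = 0.87), which became 0.45 and was called once GC content and transcript length were corrected for (edgeR adjusted p = 0.0051). *HES6* had −0.29 there (edgeR adjusted p = 0.78).

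**Figure D2:**
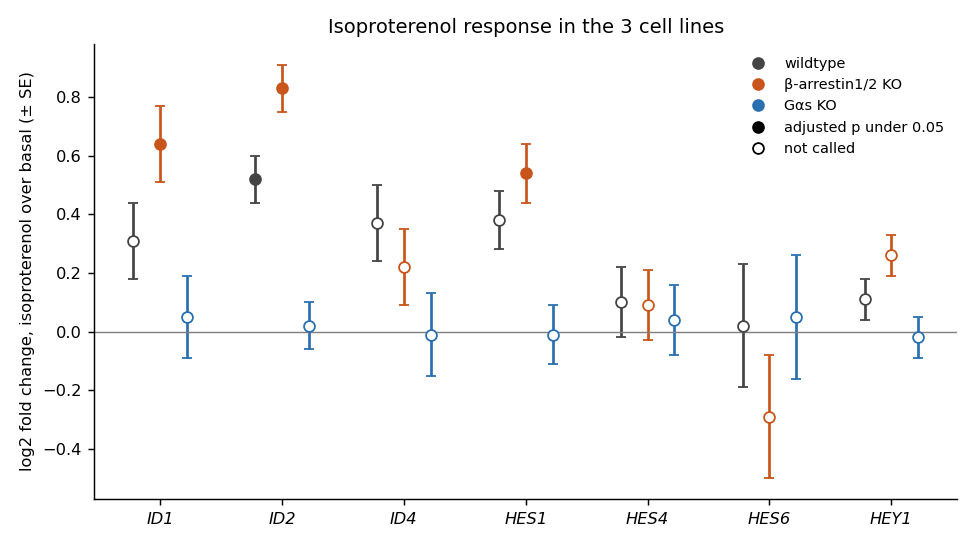
Log2 fold change of each gene with ISO over basal (y axis) in the 3 cell lines (colour), with bars for SE; filled points were called at adjusted p under 0.05 by edgeR's quasi-likelihood test. *ID2* is filled for wildtype (0.52) and for β-arrestin1/2 KO (0.83), *ID1* and *HES1* for β-arrestin1/2 KO, and the Gαs KO points lie between −0.02 and 0.05.

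Counted by overlap alone, every ISO library was above every basal library for 2 of the 7 genes in wildtype cells (*ID2* and *HES1*), against 4.85% of all genes. The same held for 5 in β-arrestin1/2 KO cells (*ID1*, *ID2*, *ID4*, *HES1* and *HEY1*), where 15.4% of all genes did so. It held for 0 in Gαs KO cells, where 4.9% of all genes did so.

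Whether the responses differed between lines was tested directly as an interaction. Between β-arrestin1/2 KO and wildtype cells 0 of the 7 genes were called by edgeR (1 at an unadjusted p under 0.05) and 0 by DESeq2, against 0.167% of all genes. The *ID2* response was larger in β-arrestin1/2 KO cells by 0.31 on the log2 scale, with a 95% interval from 0.09 to 0.53 (edgeR adjusted p = 0.64). For *ID1* the difference was 0.34 (−0.02 to 0.69, edgeR adjusted p = 0.99) and for *HES1* 0.17 (−0.11 to 0.44, edgeR adjusted p = 1.00). Without wildtype basal replicate 1, *ID2* (0.37, edgeR adjusted p = 0.017) and *HES1* (0.30, edgeR adjusted p = 0.027) were called, in a fit that called 8.24% of all genes against 0.167% with that library.

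Between Gαs KO and wildtype cells edgeR also called 0 of the 7 interactions (2 at an unadjusted p under 0.05), against 0.161% of all genes, and DESeq2 called 1, *ID2*. The *ID2* response was smaller in Gαs KO cells, with a difference of −0.50 (95% interval −0.72 to −0.27, edgeR adjusted p = 0.19). It was called by DESeq2's Wald test (−0.49, adjusted p = 0.011), with GC and length correction (−0.46, edgeR adjusted p = 0.017) and without wildtype basal replicate 1 (−0.42, edgeR adjusted p = 0.046), settings that called 0.374, 0.361 and 0.412% of all genes. For *HES1* the difference was −0.39 (−0.66 to −0.12, edgeR adjusted p = 0.89), or −0.25 without that library, and for *ID1* −0.26 (−0.63 to 0.11, edgeR adjusted p = 0.89). The single-line calls therefore do not by themselves show that the lines differed in response.

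At basal, Gαs KO cells had less of most of these RNAs. Of the 7 genes 5 were lower than in wildtype cells, *ID1*, *ID2*, *ID4*, *HES6* and *HEY1*, and 0 were higher by the edgeR test, which called 31.3% of all genes in this comparison and 17.1% of all genes as lower. The median log2 difference of the 7 was −0.80, beside 0.007 over all genes.

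Relative to the wildtype basal libraries, *ID2* was 0.499-fold in Gαs KO cells, with a log2 difference of −1.0 ± 0.08 (SE, edgeR adjusted p = 1.6e-07). *ID1* was 0.454-fold, with −1.14 ± 0.14 (SE, edgeR adjusted p = 9.7e-06). For both genes no Gαs KO library reached the lowest wildtype library. *ID4* was at 118, 113 and 120 CPM in Gαs KO basal libraries, all below even wildtype basal replicate 1 at 144 CPM. Its log2 difference was −0.80 ± 0.14 (SE, edgeR adjusted p = 0.0003), and −1.0 without that library.

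*HES6* was at 12.3, 12.1 and 10.1 CPM in Gαs KO basal libraries against 32.4, 17.5 and 22.4 CPM in wildtype. The lowest wildtype library was above the highest Gαs KO library. The log2 difference was −1.07 ± 0.21 (SE, edgeR adjusted p = 0.00097), and −0.81 without wildtype basal replicate 1 (edgeR adjusted p = 0.0015). *HEY1* had the smallest called difference, from 92.2 to 74.3 CPM as group means, with −0.31 ± 0.07 (SE, edgeR adjusted p = 0.0032). *HES1* (log2 difference 0.01, 95% interval −0.18 to 0.20) and *HES4* (−0.06, −0.30 to 0.18) overlapped with wildtype. Both changed sign without wildtype basal replicate 1 (−0.13 and 0.09, neither called). Summed over protein-coding transcripts only, *HES4* was at −0.28 and not called (edgeR adjusted p = 0.067). When only these 2 groups were fitted, *ID4* (edgeR adjusted p = 0.054) and *HEY1* (edgeR adjusted p = 0.15) were no longer called.

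β-arrestin1/2 KO cells showed another basal pattern, compared with the same wildtype libraries. *ID1*, *HES1* and *HEY1* were higher and *HES6* lower, so that 4 of the 7 genes were called, against 33.5% of all genes. *ID1* at 39.4, 34.6 and 40.3 CPM was 1.99-fold its wildtype level, with all libraries above all wildtype libraries and a log2 difference of 1.00 ± 0.13 (SE, edgeR adjusted p = 2.5e-05). *HEY1* was 1.50-fold, with 0.58 ± 0.07 (SE, edgeR adjusted p = 1.2e-05). *HES1* was 1.35-fold, with 0.43 ± 0.10 (SE, edgeR adjusted p = 0.0033). When only these groups were fitted, *HES1* (edgeR adjusted p = 0.14) and *HES6* (edgeR adjusted p = 0.13) were no longer called.

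Neither *HEY1* nor *HES1* overlapped between these groups. *HES6*, at 14.6, 13.2 and 17.8 CPM, overlapped with the lowest wildtype library at 17.5 CPM. Its log2 difference of −0.67 ± 0.21 (SE, edgeR adjusted p = 0.02) was no longer called without wildtype basal replicate 1 (−0.39, edgeR adjusted p = 0.087). *ID2* differed by −0.14 (95% interval −0.30 to 0.02), *ID4* by 0.07 (−0.19 to 0.33) and *HES4* by 0.21 (−0.04 to 0.45), and none of these 3 was called. Without wildtype basal replicate 1, *ID2* (−0.20, edgeR adjusted p = 0.015) and *HES4* (0.37, edgeR adjusted p = 0.0048) were called as well. In that fit *ID4* turned to −0.12 and was not called. Summed over protein-coding transcripts only, with all libraries, *HES4* differed by −0.03 (edgeR adjusted p = 0.86). Its retained-intron form held 22.5% of its counts in wildtype basal and 34.1% in β-arrestin1/2 KO basal libraries.

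**Figure D3:**
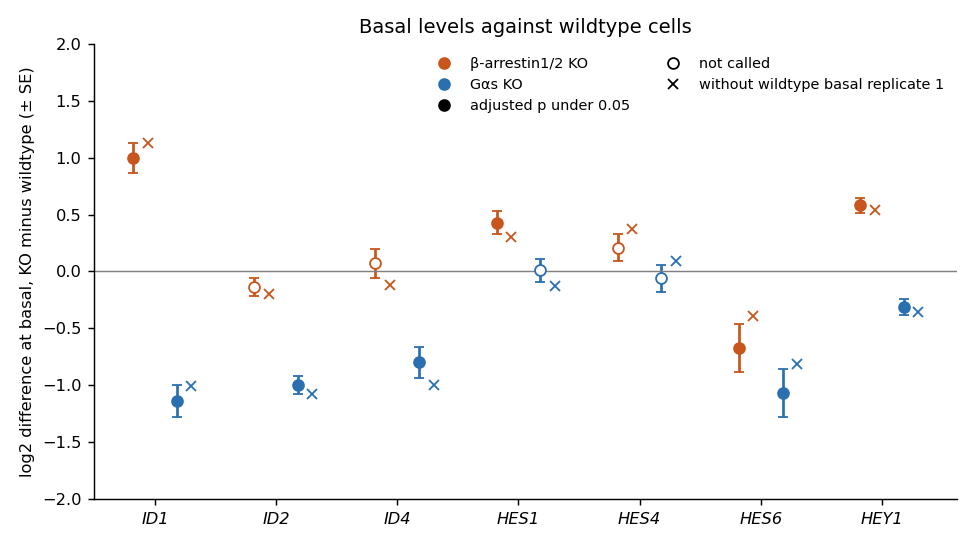
Log2 difference of each gene at basal between a KO line and wildtype cells (y axis), with bars for SE; filled points were called by edgeR's quasi-likelihood test, and crosses give the value without wildtype basal replicate 1. *ID1*, *ID2* and *ID4* lie at −1.14, −1.0 and −0.80 in Gαs KO cells, and *ID1* lies at 1.00 in β-arrestin1/2 KO cells.

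The order of the 6 groups therefore differed between genes. For *ID1* and *HEY1*, β-arrestin1/2 KO with ISO was highest, then β-arrestin1/2 KO basal, with no overlap between these or with wildtype ISO, and wildtype ISO and basal overlapped. For *ID2* the β-arrestin1/2 KO ISO libraries were highest, followed without overlap by wildtype ISO, whereas wildtype and β-arrestin1/2 KO basal overlapped. For *ID4* the ISO groups of both these lines overlapped at the top. For these 4 genes the Gαs KO groups were at the bottom, overlapped with each other and lay below every other library. For *HES1* the lowest 3 groups, both Gαs KO groups and wildtype basal, overlapped. Every neighbouring pair of groups overlapped for *HES4* and *HES6*. Over the 18 libraries, which share line and treatment, log2 CPM of *ID1* and *HEY1* correlated with Pearson's r = 0.96, *ID2* and *ID4* with r = 0.94, and *HES6* and *HES1* with r = −0.16. These values are descriptive.

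The genes most like the 3 responders over the 18 libraries were found from log2 CPM. *PMEPA1*, which dampens TGF-β signalling (r = 0.987), and *TFAP2C* (r = 0.986) were closest to *ID1*. *PMEPA1* was at mean levels of 31.8 and 43.8 CPM in wildtype basal and ISO libraries, 64.1 and 86.9 CPM in β-arrestin1/2 KO, and 17.2 and 18.6 CPM in Gαs KO. Closest to *ID2* were *AL135905.2* (r = 0.980) and *TENT5A* (r = 0.977), and closest to *HES1* were *ACTBL2* (r = 0.965) and *FOXQ1* (r = 0.961). *ACTBL2* is an actin-like gene that can share reads with other actins. *FOXQ1*, a forkhead transcription factor, went from a mean of 9.82 to 20.6 CPM with ISO in β-arrestin1/2 KO cells and from 4.01 to 4.49 CPM in Gαs KO cells.

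The other BMP, Notch and bHLH genes were mostly not called in the responses. Of 104 genes on these lists 101 were in the table and 84 passed the filter. In wildtype cells edgeR called 0 of the 84 (11 at an unadjusted p under 0.05), and DESeq2 called 3, *NRARP*, *BHLHE40* and *HAND1*. Without Gαs both tools called 0, with 1 at an unadjusted p under 0.05 in edgeR. Without the β-arrestins edgeR called 4, all higher. The median log2 fold change of the 84 was −0.012 for the wildtype response, −0.010 without Gαs and 0.031 without the β-arrestins.

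Those 4 genes were 1 BMP ligand, 1 Notch feedback gene, 1 bHLH-Orange repressor and 1 lineage bHLH factor. *BHLHE40*, a repressor related to the HES family that is known for its role in the clock, went from 82.1, 87.2 and 85.4 CPM at basal to 146, 149 and 159 CPM in β-arrestin1/2 KO cells, with a log2 fold change of 0.84 ± 0.10 (SE, edgeR adjusted p = 0.00013). *NRARP*, a Notch target that restrains the Notch complex, went from 937, 905 and 997 CPM to 1310, 1420 and 1410 CPM, with 0.54 ± 0.09 (SE, edgeR adjusted p = 0.002). *OLIG2*, a factor of the oligodendrocyte lineage, was scarce, at 1.59, 2.65 and 2.49 CPM and then 6.02, 5.29 and 4.90 CPM, with 1.26 ± 0.20 (SE, edgeR adjusted p = 0.0027). In none of these did the ISO libraries overlap the basal libraries.

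*BMP2*, the ligand, went from 20.3, 20.8 and 20.6 CPM to 28.1, 30.2 and 30.9 CPM, again without overlap, with a log2 fold change of 0.53 ± 0.12 (SE, edgeR adjusted p = 0.033). Its call was lost when any 1 of the 6 β-arrestin1/2 KO libraries was left out (edgeR adjusted p from 0.075 to 0.17). In wildtype cells the log2 fold changes were 0.43 for *BHLHE40* (edgeR adjusted p = 0.10), 0.37 for *NRARP* (edgeR adjusted p = 0.098), 0.34 for *OLIG2* (edgeR adjusted p = 0.52) and 0.33 for *BMP2* (edgeR adjusted p = 0.37). Without Gαs they were 0.14, −0.04, 0.30 and 0.04 in the same order. Of the 84 genes 0 were called by edgeR or DESeq2 in either difference in response (edgeR gave 5 at an unadjusted p under 0.05 for β-arrestin1/2 KO and 4 for Gαs KO). Without wildtype basal replicate 1 edgeR called 7 of them for β-arrestin1/2 KO, where 8.24% of all genes were called, and 1 for Gαs KO, where 0.412% were.

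**Figure D4:**
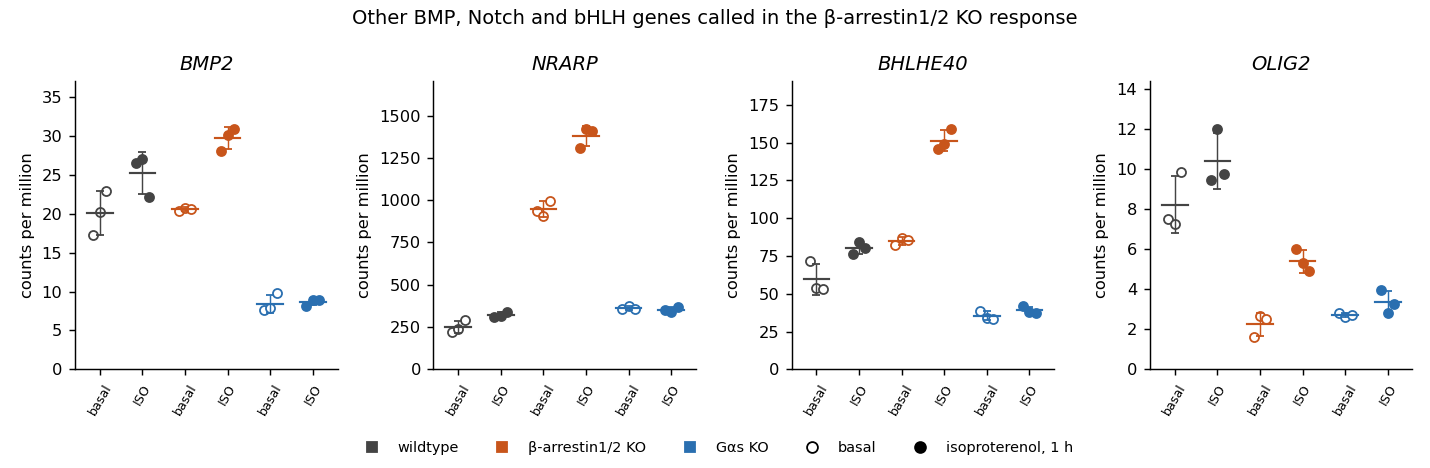
Level of *BMP2*, *NRARP*, *BHLHE40* and *OLIG2* in every library, in TMM-normalized CPM (y axis, from 0), by cell line and treatment; horizontal lines are group means and bars SD (n = 3). In β-arrestin1/2 KO cells each ISO library is above each basal library, and *NRARP* stands at 905 CPM or more there, against at most 374 CPM in the other lines.

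At basal genes of these lists were called in both directions, at about the rate of all genes. Gαs KO cells had 10 of the 84 higher and 17 lower than in wildtype cells, and β-arrestin1/2 KO cells 17 higher and 11 lower, by the same edgeR test. These 27 and 28 calls stand beside 31.3% and 33.5% of all genes. They became 37 and 43 without wildtype basal replicate 1, beside 45.9% and 46.7% of all genes, and 13 of 83 and 8 of 81 when only the groups compared were fitted, beside 10.8% and 10.3%. The median log2 difference of the 84 was 0.002 and 0.061, beside 0.007 and 0.023 over all genes. Among BMP ligands, 3 of 9 were lower in Gαs KO cells, led by *GDF7* (log2 difference −2.63 ± 0.19 SE, edgeR adjusted p = 4.8e-08) and *BMP2* (−1.25 ± 0.12 SE, edgeR adjusted p = 1.2e-06). Of the 7 BMP receptors *ACVR2B* was lower (−0.53, edgeR adjusted p = 0.0014), and of the 4 SMADs that carry or share the BMP signal *SMAD4* was lower (−0.51, edgeR adjusted p = 0.0015). Of 10 inhibitors 1 was higher and 2 lower, *BMPER* (−1.38, edgeR adjusted p = 0.0019) and *BAMBI*, a decoy receptor (−0.82, edgeR adjusted p = 0.00016). *BMPER* was scarce, at basal means of 1.59 CPM in Gαs KO and 4.15 CPM in wildtype cells.

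Without the β-arrestins 2 of the 9 BMP ligands were higher and 2 lower, led by *BMP8A* (1.16, edgeR adjusted p = 0.0026) and *GDF7* (−0.64, edgeR adjusted p = 0.0098). *BMP8A* was scarce, at basal means of 6.27 CPM in β-arrestin1/2 KO and 2.79 CPM in wildtype cells. Of the receptors *ACVRL1* was lower (−0.90, edgeR adjusted p = 0.0018). *SMAD9* was higher (0.91, edgeR adjusted p = 8e-05), as were 3 of the 10 inhibitors. The inhibitory *SMAD7* was at a mean of 65.1 CPM against 29.3 CPM in wildtype basal cells (1.15 ± 0.10 SE, edgeR adjusted p = 4.9e-07), and *FST*, which binds activins and BMPs, was scarce in both (1.90, edgeR adjusted p = 0.034).

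Among the Notch genes, *NRARP* stood out in β-arrestin1/2 KO cells, at a mean of 946 CPM at basal against 249 CPM in wildtype (log2 difference 1.92 ± 0.09 SE, edgeR adjusted p = 2.8e-10), and it was also higher in Gαs KO cells (0.54, edgeR adjusted p = 0.00016). *LFNG*, which adds sugars to Notch receptors, was higher in both lines (1.96, edgeR adjusted p = 5e-07, and 0.53, edgeR adjusted p = 0.032). The Notch ligand *JAG2* was lower in both (−0.76, edgeR adjusted p = 0.001, and −0.84, edgeR adjusted p = 0.00049). Both comparisons use the same wildtype basal libraries, and without replicate 1 the *JAG2* values were −0.49 and −0.58.

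Other Notch genes stood out in one line or the other. For Gαs KO these were *DLL3* (−0.69, edgeR adjusted p = 0.00039), *PSEN2*, a γ-secretase subunit (−0.51, edgeR adjusted p = 0.036, and 0.063 without wildtype basal replicate 1), and the coactivator *MAML3* (−0.84, edgeR adjusted p = 7.3e-05). For β-arrestin1/2 KO they were *NOTCH3* (−0.62, edgeR adjusted p = 0.018, and −0.20 without wildtype basal replicate 1) and *MFNG*, which was near the filter (−3.68, edgeR adjusted p = 0.0041, and −2.32 without that library).

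Among partners and relatives, the E protein *TCF3*, which ID proteins bind, was lower in β-arrestin1/2 KO cells (−0.81, edgeR adjusted p = 0.00063, and −0.48 without wildtype basal replicate 1), and *TLE4*, a corepressor of HES proteins, was higher in β-arrestin1/2 KO (0.40, edgeR adjusted p = 0.00021) and Gαs KO cells (0.30, edgeR adjusted p = 0.0023). Of the other bHLH-Orange genes, *HES2* (2.49, edgeR adjusted p = 7.6e-05) and *HELT* (1.64, edgeR adjusted p = 0.00018) were higher in β-arrestin1/2 KO cells. *HELT* was higher (1.66, edgeR adjusted p = 0.00016) and *HES5* lower (−1.84, edgeR adjusted p = 0.045) in Gαs KO cells. Without wildtype basal replicate 1 the *HES5* call was lost (edgeR adjusted p = 0.14). These 3 genes were scarce, with group means of at most 8.12 CPM.

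Of the lineage bHLH factors 10 of 23 in the table passed the filter. In Gαs KO cells *TAL1*, a factor of blood formation, fell from a mean of 4.05 to 0.0977 CPM (edgeR adjusted p = 1.6e-06) and *HAND1* from 32.4 to 10.1 CPM (log2 difference −1.68 ± 0.11 SE, edgeR adjusted p = 2.2e-08). In β-arrestin1/2 KO cells *OLIG2* was lower (−1.87, edgeR adjusted p = 4.4e-06) and *LYL1* higher (1.11, edgeR adjusted p = 0.026). *LYL1* was scarce, at basal means of 3.52 CPM in β-arrestin1/2 KO and 1.63 CPM in wildtype cells.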

How the data were processed

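RNA-Seq libraries of 18 samples (6 groups of 3) were analysed. The deposited values are expected counts per transcript, which the authors estimated from paired-end reads with Salmon 1.7.0. The index and annotation are not given in the sources used here. The values were not normalized for depth or length, and 0 columns were left unused.

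Of 184844 transcripts, 161838 matched 34287 GENCODE 29 genes by Ensembl identifier without version, which kept 92.9 to 93.8% of each library's counts. Gene sums were rounded. *ID3* was not analysed here. R 4.3.3 with edgeR 4.0.16 (TMM, filterByExpr, glmQLFTest, a coefficient per group over all 18 libraries) tested 15530 genes, with Benjamini-Hochberg adjustment over all of them. An SE is the size of the log2 value over the square root of its F statistic. CPM are TMM-scaled, and TPM use annotated lengths. DESeq2 1.42.0 and Python 3.11.15 (pandas 2.3.3, matplotlib 3.10.9) were also used. The pipeline was tested on simulated data. In the main fit a p-value sets a difference against the spread between libraries of the same group. That spread was estimated jointly over the 6 groups, with information shared between genes.

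Members, gene lists and tests were chosen with earlier results of these data known. Named were all members, the targeted genes, list genes called in a response or a difference in response, the 2 largest called basal differences per list, and the 2 genes most correlated with each responding member. *HAND1* in wildtype cells was named after its values were seen. Libraries were treated as unpaired, because the study's methods state no pairing. Same-numbered libraries did not deviate together. Alternatives were other scalings, filters, tests, groups fitted, thresholds and composition offsets, a replicate block, and each library left out. Sums over protein-coding transcripts only were added after seeing the data.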

Additional observations from a re-analysis of the deposited data

How the results depend on the processing

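Of 966 log2 values of single members under the alternative settings, 0 changed sign while called in either fit. Direction and side of the threshold were kept by 885, 16 lost a call, 20 gained one and 45 changed sign while uncalled. The 966 include the stricter threshold of 0.01, which reuses the main values and could change only a call. The number of the 7 genes called moved as follows. In the wildtype response (main count 1) it was 2 with DESeq2, 2 with GC and length offsets, 3 with those offsets and a replicate block, 0 when only the wildtype groups were fitted, and 1 to 2 with a library left out (2, *ID2* and *HES1*, without wildtype basal replicate 3). In the β-arrestin1/2 KO response (main count 3) it was 5 with only those groups, 5 with the offsets, 5 with the offsets and block, and 1 to 3 with a library left out (1, *ID2*, without β-arrestin1/2 KO basal replicate 1). The difference in response between β-arrestin1/2 KO and wildtype (main count 0) gave 0 to 2 with a library left out, and that between Gαs KO and wildtype (main count 0) gave 1 with DESeq2, 1 with the offsets, 1 with the offsets and block, and 0 to 1 with a library left out. When only the groups compared were fitted, the basal count fell from 4 to 2 in β-arrestin1/2 KO and from 5 to 3 in Gαs KO cells. Fits with fewer libraries have fewer residual degrees of freedom and estimate the spread from the libraries kept. Why the counts moved, up or down, was not tested. Over all genes the wildtype response had 72 calls in edgeR and 183 in DESeq2, 226 with the offsets and 176 without wildtype basal replicate 1.

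Correlations of same-numbered deviations from the group means ran from −0.093 to 0.066, which gave no sign of pairing by number. The replicate block alone gave the same counts of members called, 1 in the wildtype response, 3 without the β-arrestins, 0 without Gαs, 0 and 0 in the differences, and 4 and 5 at basal. For *ID1* and *HES6*, with as few as 155 and 191 counts in a library, the SE of up to 0.21 on the log2 scale within a line or at basal, and up to 0.29 for differences in response, limits what could be detected.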
